A study of Bos taurus with 10 samples.

Results

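Mitochondrial carriers, outer membrane channels and protein import genes were described in the longissimus dorsi, the long back muscle, of 10 Hanwoo cattle, the native Korean beef breed. The members are the genes whose symbol starts with SLC25A, TIMM or TOMM, plus VDAC1, VDAC2 and VDAC3, on probe sets that carry exactly 1 gene symbol. SLC25A20 was left out by the rule. This gave 47 genes on 63 probe sets, out of 9155 named genes on the array, and the brightest probe set stood for each gene. They comprise 26 carriers, 3 channels and 18 import genes. All arrays form 1 group, numbered here as animals 1 to 10. No treatment, genotype or trait value separates them, and an age, of about 2 years, is labelled for animal 1 and was not used for the others. By its design text the study set expression beside the animals' beef traits, which were not analysed here. Separate animals are known only from the numbering and that text, and the p-values rest on the variation between these samples.

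Nearly all mitochondrial proteins are made in the cytosol and pass the outer membrane through the TOM complex, whose pore is TOMM40. The TIM23 complex then takes precursors with a cleavable leader into the matrix, while small TIM chaperones carry membrane proteins to the TIM22 complex. The SLC25A carriers are such membrane proteins. They move ADP, ATP, phosphate, metabolites and cofactors across the inner membrane, and the VDAC channels pass the same small molecules through the outer one. In skeletal muscle this traffic supplies ATP to contraction.

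Levels are given as log2(signal + 16) after quantile normalization, which gives every array the same distribution, and 1 unit on this scale is a doubling for genes well above the offset. Each probe set has its own brightness, so no gene's level is set against another's. Genes were tested where the mean over the animals exceeded 6.98, the level that splits all probe sets evenly. Of the 47 members 40 passed, against 6271 of all 9155 named genes. All 18 import genes and all 3 channels were among the 40, and the 7 others were carriers. SLC25A16 stood just inside this limit at 7.22 and SLC25A30 just outside at 6.90.

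The array of animal 5 stood apart from the rest before any gene was considered. The array carries control probe sets for bacterial RNAs with a poly(A) tail, which are added to samples to follow labelling. The signal of their 3' ends minus that of their 5' ends, over 9 pairs of probe sets, was 2.34 on the log2 scale in animal 5, against 0.93 to 1.24 in the other 9. No bovine gene enters this control difference. Correlations between arrays ran from 0.901 to 0.959. Of the 14 skeletal muscle markers, 11 were measured, with mean levels from 15.22 to 15.90, which matches the labelled tissue. Over the tested markers of each list, the mean level ranged between animals from 9.26 to 10.73 for 14 adipocyte genes and from 9.21 to 11.09 for 16 connective tissue genes. It ranged from 8.72 to 9.51 for 7 endothelial, 10.46 to 11.16 for 8 smooth muscle and 6.73 to 8.44 for 8 leukocyte genes. The part of these other cells in the results below was tested only where a score is named. In whole muscle, fewer mitochondria-rich cells and less RNA per cell cannot be told apart.

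Carrier and import genes varied between animals about as much as other genes. Over the 40 tested members the median SD was 0.37, against 0.36 over all tested genes, and 7 of 40 had an SD above 0.5, where 22.1% of all tested genes did. Without animal 5 the medians were 0.28 over the members and 0.31 over all tested genes, and 5 of 40 members had an SD above 0.5 (14.5% of all). SDs ran from 0.08 for SLC25A4 to 1.02 for SLC25A16. The 10 with the largest SDs were SLC25A16, SLC25A25, SLC25A51, SLC25A33, TOMM7, TOMM6, TIMM17B, SLC25A44, SLC25A6 and TIMM9. The 5 with the smallest were SLC25A4, SLC25A3, VDAC3, SLC25A26 and TOMM70. By role, the median SD was 0.28 over 4 energy carriers, 0.42 over 6 metabolite carriers and 0.54 over 8 carriers of cofactors, nucleotides and metals. It was 0.17 over the 3 VDAC channels, 0.35 over 7 outer membrane import genes, 0.20 over 5 genes of the TIM23 complex and 0.44 over 6 genes of carrier import. With the deposited scaling the SDs of SLC25A4, SLC25A3 and VDAC3 were 0.39, 0.22 and 0.27, while SLC25A26 and TOMM70 stayed at 0.11 and 0.14. The low medians of the energy carriers and channels thus depended in part on the normalization.

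**Figure D1:**
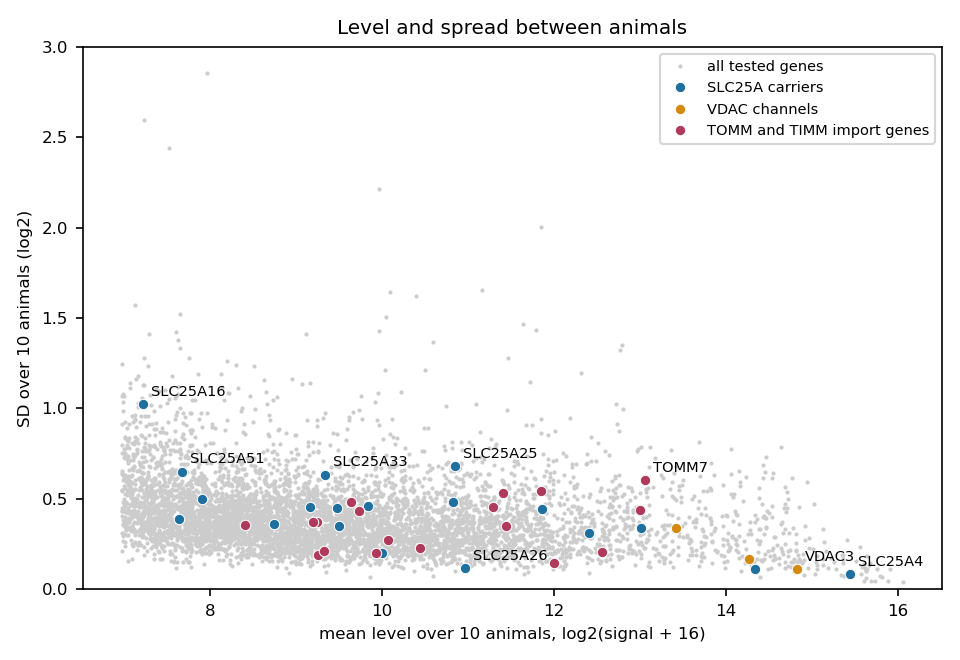
Mean level of each tested gene over 10 animals (x axis, log2(signal + 16)) against its SD over the same animals (y axis, log2). Grey points are all 6271 tested genes and coloured points are the 40 tested members. SLC25A16 is the highest member at an SD of 1.02, and SLC25A4 and VDAC3, at the bright end, are among the lowest.

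Members did not vary as 1 block. The median Pearson r over the 780 pairs of tested members was 0.041, against 0.004 over pairs of all tested genes, and without animal 5 these were 0.021 and 0.001. An r above 0.5 was reached by 11.3% of member pairs and by 11.9% of all gene pairs. By role the median r was -0.004 over the energy carriers, 0.16 over the metabolite carriers and 0.019 over carriers of cofactors, nucleotides and metals. It was 0.026 over outer membrane import, 0.124 over the TIM23 complex and 0.123 over carrier import. Without animal 5 the medians were, in the same order, 0.089, 0.021, 0.073, 0.021, -0.154 and 0.098. These are descriptions over pairs that share the same 10 arrays. The 3 pairs of VDAC channels had a median r of -0.12 with all animals and 0.479 without animal 5. VDAC1 entered by its brightest probe set, which was highest in animal 5 only after quantile normalization. Its second probe set was lowest there, at 12.10 against 12.86 to 13.25.

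Animal 5 held the lowest value of 11 of the 40 members and the highest of 5. Over all tested genes animal 5 was lowest in 27.5% and highest in 21%, so the members' count of lowest values matched that of the other genes. Those lowest in animal 5 were SLC25A1, SLC25A4, SLC25A6, SLC25A11, VDAC2, TOMM6, TOMM7, TIMM8B, TIMM10, TIMM17B and TIMM23. Those highest there were SLC25A3, SLC25A25, VDAC1, TOMM5 and TIMM9. The places of SLC25A3, SLC25A4 and VDAC1 held only after quantile normalization: with the deposited scaling and with arrays centred on their median, animal 5 lay within the range of the other 9. SLC25A1 was lowest in animal 5 with the deposited scaling and not with median centring. The other 12 kept their place under all 3 scalings. In 7 members (17.5%) animal 5 was more than 1 log2 unit below the mean of the other 9 animals, against 11.1% of all tested genes, and in 1 member it was more than 1 unit above (2.5%, against 5.52%).

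**Figure D2:**
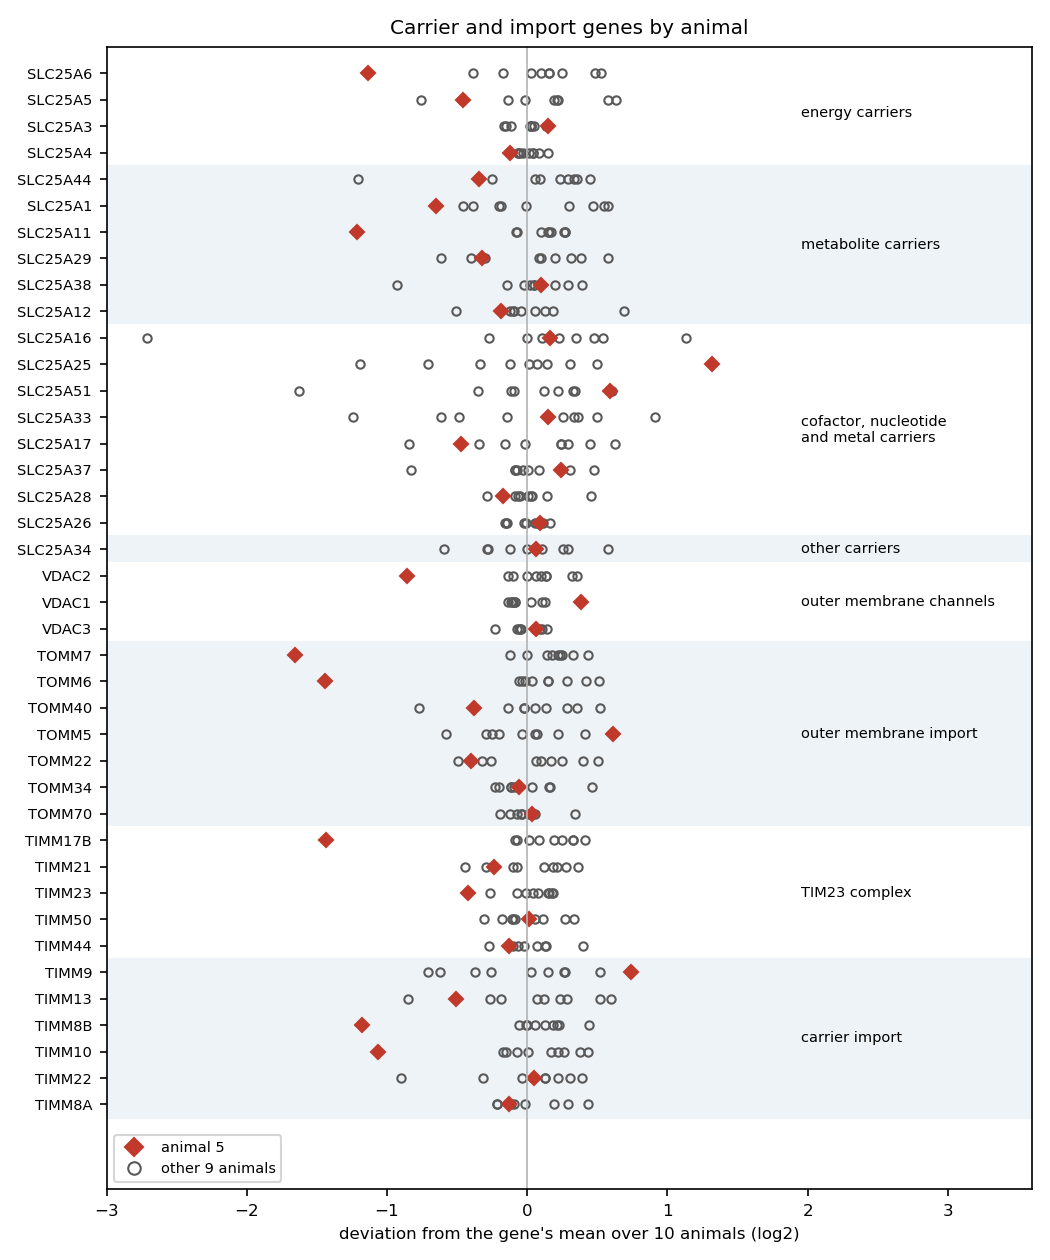
Deviation of each animal from the gene's mean over 10 animals (x axis, log2) for the 40 tested members, grouped by role. Red diamonds are animal 5 and open circles the other 9 animals. TOMM7, TOMM6, TIMM17B, SLC25A11, TIMM8B, SLC25A6 and TIMM10 are more than 1 unit lower in animal 5 than the mean of the others, and SLC25A25 is more than 1 unit higher.

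The energy carriers supply ADP and phosphate to ATP synthase. SLC25A4, the ADP/ATP exchanger of muscle and heart, ranged from 15.32 in animal 5 through a median of 15.43 to 15.59 in animal 2 (15.44 ± 0.08, SD, n = 10). Its highest value was 1.21-fold its lowest. Its deposited intensities ran from 29379 in animal 2 to 63588 in animal 1. Animal 2 was thus lowest in the deposited intensities and highest after quantile normalization. With the deposited scaling the SD of SLC25A4 was 0.39, so its small SD and the order of the animals depended on the normalization. SLC25A3, the phosphate carrier, ranged from 14.17 through 14.36 to 14.49 (14.34 ± 0.11), with an SD of 0.22 at the deposited scaling. Both lay close together in all 10 animals once arrays had been given the same distribution.

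The other ADP/ATP exchangers spread more. SLC25A5, the exchanger linked to dividing cells, ranged from 9.08 in animal 2 through 9.93 to 10.47 in animal 7 (9.84 ± 0.46), a 2.63-fold range that SLC25A5 kept without animal 5 (SD 0.45). SLC25A6 stood at 9.69 in animal 5, against 10.44 to 11.35 in the other 9 animals (10.82 ± 0.48 over all 10). Animal 5 alone set much of the spread on this probe set, whose SD was 0.29 without it. The other SLC25A6 probe sets did not place animal 5 low: it stood at 8.25 on the second, within 7.58 to 9.24, and at 8.32 on the dimmest, above 7.09 to 7.97.

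Among the metabolite carriers, SLC25A11 showed the clearest gap. SLC25A11 exchanges oxoglutarate for malate in the malate-aspartate shuttle, and it stood at 10.65 in animal 5, against 11.78 to 12.13 in the other 9 (SD 0.44, and 0.13 without animal 5). The other probe set of this gene was dim, at a mean of 5.68, and was not tested. SLC25A12, the aspartate and glutamate exchanger of the same shuttle, ranged from 11.90 in animal 4 through 12.34 to 13.10 in animal 6 (12.41 ± 0.31). On this, the brightest probe set, animal 5 lay among the rest at 12.23, while the dimmest probe set set it apart, as described with the probe set pairs.

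SLC25A1 exports citrate, the carbon source of fat synthesis in the cytosol. It ranged from 8.84 in animal 5 through 9.39 to 10.06 in animal 4 (9.48 ± 0.45), a 2.33-fold range with animals 1, 2 and 4 at the top. SLC25A44, a carrier of branched-chain amino acids, was at 6.70 in animal 3, while the rest spanned 7.56 to 8.35 (7.90 ± 0.50, and SD 0.27 without animal 3). SLC25A38, which brings in glycine for heme synthesis, was at 7.81 in animal 6, below the 8.60 to 9.14 of the rest. Each of these gaps was made by 1 animal, and not by the same one. SLC25A29, a carrier of basic amino acids, ranged from 7.02 through 7.73 to 8.21 without such a gap.

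Carriers of cofactors, nucleotides and metals held 4 of the 10 largest SDs. SLC25A16, a carrier tied to coenzyme A, stood at 4.51 in animal 10, well below the 6.95 to 8.36 elsewhere. Its deposited intensity was 8.77 in animal 10, against a range of 118.8 to 316.6 elsewhere. That value lies near the floor of the scale, so its size depends on the offset: the SD was 1.46 with an offset of 1 and 0.62 with 64, where SLC25A25 had 0.66. Without animal 10 the SD of SLC25A16 was 0.40. SLC25A51, the carrier of NAD, was at 6.05 in animal 1, below the 7.33 to 8.28 of the rest (7.68 ± 0.65, and SD 0.33 without animal 1).

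SLC25A25, a calcium-regulated carrier of ATP-Mg and phosphate, spread across the whole group. It ranged from 9.66 in animal 8 through 10.89 to 12.17 in animal 5 (10.85 ± 0.68), and its SD was still 0.53 without animal 5. SLC25A33, which carries pyrimidine nucleotides for mitochondrial DNA and RNA synthesis, ranged from 8.09 in animal 6 through 9.54 to 10.25 in animal 2 (9.33 ± 0.63), a 4.46-fold range. Its SD was 0.66 without animal 5, so the spread of SLC25A33 did not come from that array. The peroxisomal carrier SLC25A17 ranged from 8.32 to 9.80, the mitoferrin genes SLC25A37 and SLC25A28, which import iron, from 8.67 to 9.97 and from 9.71 to 10.45, and SLC25A26, the carrier of S-adenosylmethionine, from 10.81 to 11.13. SLC25A34 ranged from 12.42 through 13.04 to 13.59.

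The carriers below the limit were SLC25A14, SLC25A15, SLC25A21, SLC25A30, SLC25A40, SLC25A42 and SLC25A48. Their means lay between 4.45 for SLC25A48 and 6.90 for SLC25A30. The offset of 16 sets the floor of this scale at 4, so low values in this group carry little information. SLC25A30, a relative of the uncoupling proteins, was at 7.84 in animal 5, above the 6.24 to 7.28 of the other 9. SLC25A15, the ornithine carrier, was near 7 in animals 1, 2 and 9 (7.01, 7.09 and 6.90) and between 4.54 and 5.60 in the rest. The ranges were 4.35 to 7.01 for SLC25A14, 4.18 to 6.46 for SLC25A21, 4.25 to 6.89 for the glutathione carrier SLC25A40 and 4.86 to 7.25 for the coenzyme A carrier SLC25A42.

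The VDAC channels were bright, and the small SD of VDAC3, like that of SLC25A4, depended on the normalization. VDAC1, the most studied of these channels, ranged from 14.12 through 14.17 to 14.64 (14.26 ± 0.17), with animal 5 highest after quantile normalization, and had an SD of 0.19 at the deposited scaling. VDAC3 ranged from 14.60 through 14.83 to 14.96 (14.82 ± 0.11), and its SD was 0.27 at the deposited scaling. VDAC2 was the channel with a gap: it stood at 12.56 in animal 5, against 13.28 to 13.78 in the other 9 animals (SD 0.34, and 0.17 without animal 5).

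In the outer membrane import machinery, the small subunits TOMM6 and TOMM7, which shape the assembly of the TOM complex, were far lower in animal 5. TOMM7 stood at 11.40 in animal 5, against 12.94 to 13.49 in the other 9 (13.06 ± 0.60 over all 10). The gap was there before quantile normalization, in the deposited and already scaled intensities, at 2683 in animal 5 against 8156 to 12224. TOMM6 stood at 10.41 in animal 5, against 11.79 to 12.36 (11.85 ± 0.54). Without animal 5 the SDs of TOMM7 and TOMM6 were 0.17 and 0.21. TOMM5, another small subunit, went the other way, at 9.02 in animal 5 against 7.83 to 8.82.

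The pore and the receptors showed no such gap on their brightest probe sets. TOMM40, the pore, ranged from 8.43 in animal 6 through 9.22 to 9.72 in animal 1 (SD 0.37). TOMM22, the central receptor, ranged from 10.94 in animal 7 through 11.52 to 11.95 in animal 6 (11.44 ± 0.35). TOMM70, the receptor that recognises carrier precursors, ranged from 11.81 through 11.99 to 12.34 (SD 0.14), while its second probe set put animal 5 below the rest. Animal 6 was highest in both receptors. TOMM34, a cytosolic partner of chaperones, ranged from 9.10 to 9.79.

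In the TIM23 complex, TIMM17B and, by a smaller margin, TIMM23 were lowest in animal 5. TIMM17B, which lines the translocation path with TIMM23, stood at 9.97 in animal 5, against 11.32 to 11.82 in the other 9 animals (11.41 ± 0.53, and SD 0.18 without animal 5). TIMM23 stood at 12.14 in animal 5, against 12.29 to 12.74 (12.56 ± 0.20). The receptor TIMM50 ranged from 9.62 through 9.89 to 10.26, the import motor anchor TIMM44 from 8.98 through 9.21 to 9.65, and TIMM21 from 9.63 through 10.09 to 10.44. Animal 5 lay within the others' range in these 3 genes.

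The small TIM chaperones of carrier import split in animal 5. TIMM8B stood at 11.82 in animal 5, against 12.94 to 13.44 in the other 9 (12.99 ± 0.44), and TIMM10 at 8.67, against 9.56 to 10.17 (9.74 ± 0.43). TIMM9, which forms a hexamer with TIMM10, was instead highest in animal 5, at 10.38 against 8.94 to 10.17 (9.65 ± 0.48). The readings of TIMM9 and TIMM10 thus lay on opposite sides of the group in that animal. Each gene rests on 1 probe set, and the array of animal 5 stood apart on the poly(A) control difference. TIMM13 ranged from 10.45 in animal 10 through 11.39 to 11.89 in animal 3 (11.29 ± 0.46). TIMM8A, the gene of a human deafness-dystonia syndrome, ranged from 10.22 through 10.34 to 10.87. TIMM22, the pore for carriers, was at 8.34 in animal 10, below the 8.93 to 9.63 of the rest (SD 0.37, and 0.21 without animal 10).

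Of the members, 12 had more than 1 probe set, and in 9 the 2 brightest were both above the limit. SLC25A33 was the pair that passed the test: r = 0.899 (permutation p = 0.00048, adjusted p = 0.00432 over 9 pairs), rho = 0.939 (permutation p = 0.00024, adjusted p = 0.00216, n = 10). Leaving out the 2 animals most distant from the brightest probe set's median gave an r of 0.866 for SLC25A33. Its spread between animals was thus read by both probe sets, and the second had an SD of 1.08. TIMM22 had r = 0.617 and SLC25A12 had r = 0.665 (adjusted permutation p = 0.137 for both; rho = 0.709 and 0.382, adjusted permutation p = 0.127 and 0.627), and without the 2 farthest animals r was 0.436 and -0.029. SLC25A6 had r = -0.176 and rho = -0.236 between its 2 brightest probe sets (permutation p = 0.58 and 0.514). Its r was -0.067 without the 2 farthest animals. Without animal 5, r was 0.951 for SLC25A33, 0.862 for TIMM22, 0.842 for SLC25A12 and -0.493 for SLC25A6, values that were not tested.

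In animal 5, probe sets of the same gene gave different readings. The brightest VDAC1 probe set was at 14.64 in animal 5, against 14.12 to 14.39 in the other 9, while the second was at 12.10, against 12.86 to 13.25. Their r was -0.733 by permutation p = 0.061 (0.137 once adjusted), with a rho of -0.127 at permutation p = 0.731. The r was -0.136 without the 2 farthest animals and 0.102 without animal 5. For TOMM70 the brightest probe set was at 12.04 in animal 5, within the range of 11.81 to 12.34, and the second was at 10.10, below the 11.08 to 11.60 of the others (r = 0.174 and rho = 0.212, with permutation p = 0.53 and 0.559, and r = -0.457 without the 2 farthest animals). SLC25A26 read 11.06 on its brightest probe set in animal 5, within 10.81 to 11.13 (highest of all with the other scalings), and 8.39 on the second, below 9.58 to 10.22. The r for SLC25A26 was 0.09 with all animals and its rho 0.588 (permutation p = 0.842 and 0.0802, adjusted to 0.842 and 0.241), and r was 0.841 without animal 5. SLC25A12 read 11.39 in animal 5 on its second probe set, within 10.21 to 11.83, and 9.26 on its dimmest, where the other 9 animals held 10.22 to 11.49. SLC25A25 was highest in animal 5 on its brightest probe set and within the others' range on the second, at 8.16 against 7.66 to 9.60 (r = 0.338 and rho = 0.2, with permutation p = 0.334 and 0.584, and r = 0.501 without the 2 farthest animals). The remaining pair, that of SLC25A34, had r = 0.272 and rho = 0.321 (permutation p = 0.449 and 0.367, and r = -0.086 without the 2 farthest animals). Without animal 5, r was 0.721 for SLC25A25, 0.572 for TOMM70 and 0.362 for SLC25A34. The second probe sets of TIMM22 and SLC25A34 also put animal 5 just below the rest. They read 8.22 against 8.27 to 8.94 for TIMM22, and 8.41 against 8.45 to 9.42 for SLC25A34. On the brightest probe sets of both genes animal 5 lay within the others' range. The place of VDAC1, TOMM70, SLC25A26, SLC25A25, SLC25A12, SLC25A6, TIMM22 or SLC25A34 in animal 5 therefore depended on which probe set was read.

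**Figure D3:**
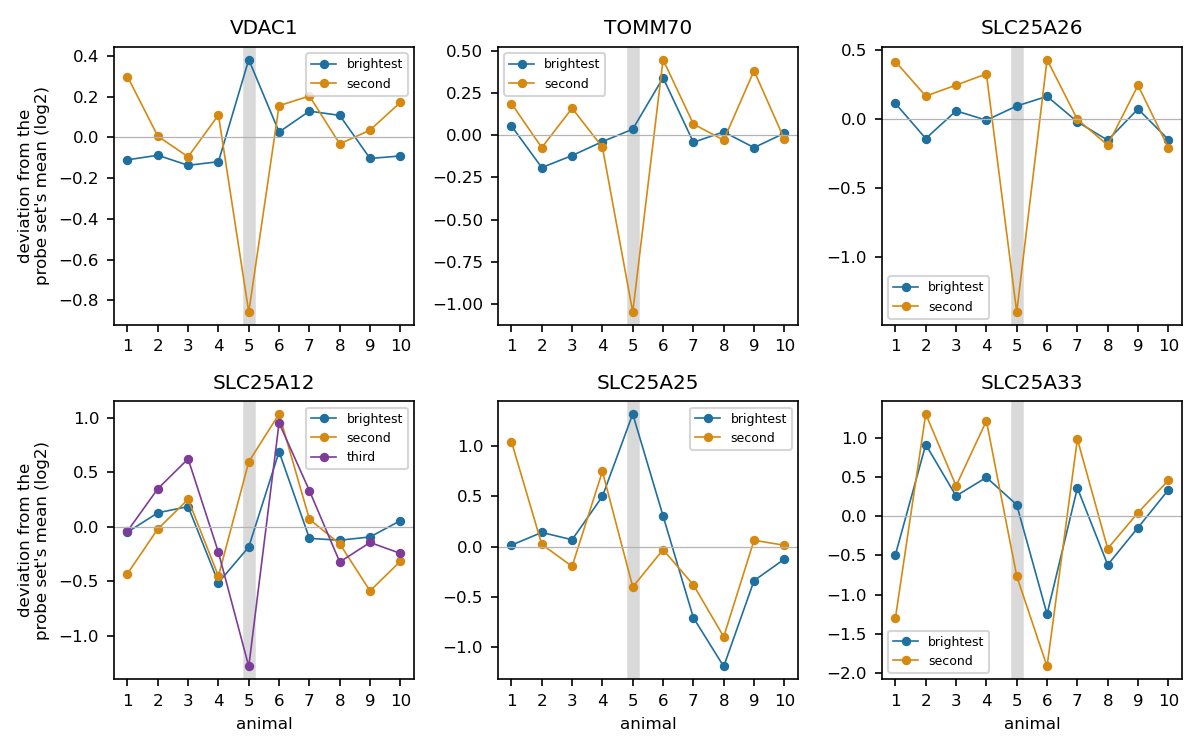
Deviation of each tested probe set from its own mean (y axis, log2) by animal (x axis, animals 1 to 10) for 6 members with several probe sets. The grey band marks animal 5. The second VDAC1, TOMM70 and SLC25A26 probe sets and the dimmest SLC25A12 probe set (the third in its panel) drop in animal 5 while the brightest do not, and both SLC25A33 probe sets follow each other across the animals.

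To ask whether members varied with other mitochondrial genes, each tested gene was fitted in limma against 2 scores that hold no member. The OXPHOS score is the mean deviation of 79 respiratory chain and ATP synthase genes, and the mitochondrial ribosome score that of 67 MRPL and MRPS genes. TOMM7, TIMM8B, SLC25A11, VDAC2, TIMM17B, TOMM6 and TIMM10 rose with the OXPHOS score. They were 7 of 40 members (6.64% of the 6192 genes tested rose), and 0 of 40 fell (1.76% of all), with 9 members at an unadjusted p below 0.05 (24.8% of all). Per SD of the OXPHOS score, TOMM7 changed by 0.55 log2 units (SE 0.09, limma adjusted p = 0.00687) and TIMM8B by 0.41 (SE 0.07, limma adjusted p = 0.00937). The other 5 had slopes from 0.32 for VDAC2 to 0.46 for TIMM17B, with limma adjusted p from 0.0148 to 0.0291. The median slope was 0.08 over the members and 0.02 over all genes tested.

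The same 7 genes rose with the mitochondrial ribosome score (7.59% of 6204 genes rose), and 0 members fell (2.03% of all), with 10 members at an unadjusted p below 0.05 (25.9%). TOMM7 again had the steepest slope at 0.55 (SE 0.09, limma adjusted p = 0.00587), and VDAC2 the shallowest of the 7 at 0.29 (SE 0.08, limma adjusted p = 0.0338).

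Both sets of calls were lost without animal 5. The OXPHOS score was -0.56 in animal 5, against -0.02 to 0.19 in the other 9 animals, and the ribosome score -0.56, against -0.02 to 0.22. Without animal 5 limma called 0 of 40 members and 0 of all genes with either score. An unadjusted p below 0.05 was then held by 1 member (8.93% of all genes) with the OXPHOS score and 3 members (11.4%) with the ribosome score. The spread of the scores was also smaller then, with an SD of 0.07 against 0.21 for each, so slopes are compared per log2 unit of the score. TOMM7 had an OXPHOS slope of 0.09 per unit without animal 5 (SE 1.103), against 2.67 with all animals (SE 0.44). TOMM6 had -1.85 (SE 1.08), against 2.13 (SE 0.52). VDAC2 had 1.72 (SE 0.98), against 1.55 (SE 0.33), and TIMM10 with the ribosome score 1.84 (SE 1.11), against 1.91 (SE 0.37). The 9 animals thus left the slopes loosely set. An exact Spearman correlation per gene over all 10 animals called 0 members with either score, with 0 and 1 at an unadjusted p below 0.05. Scaling also mattered: with the deposited scaling 3 members were called with the OXPHOS score, TIMM8B, TOMM7 and VDAC2, and with median centring 1, TOMM7. With the ribosome score 6 members were called at the deposited scaling and 1, TIMM10, with median centring.

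A fit against the poly(A) control difference itself called the same 7 genes and SLC25A6. TOMM7, SLC25A11, TIMM17B, TOMM6, TIMM8B, TIMM10, SLC25A6 and VDAC2 fell as the difference grew, 8 of 40 members (10.2% of 6271 genes fell), and 0 of 40 rose (3.84% of all), with 9 members at an unadjusted p below 0.05 (29% of all). TOMM7 had a slope of -0.57 per SD (SE 0.08, limma adjusted p = 0.00138) and VDAC2 of -0.27 (SE 0.08, limma adjusted p = 0.044). Without animal 5, 0 members and 0 genes were called, and 3 members had an unadjusted p below 0.05 (6.33% of all genes). Over the 3 fits, 10 of the 22 called slopes had the opposite sign without animal 5 and 2 were at least as large per unit, those of VDAC2 with the OXPHOS score and TIMM10 with the control difference. The SLC25A6 and SLC25A11 calls were also lost where each gene's probe sets were averaged, with slopes of -0.045 and -0.25 per SD. The score of other mitochondrial genes and this array measure thus set apart the same animal, and their parts in the members' values cannot be told apart in these arrays. Exact Spearman correlations with the control difference called 0 members, with 4 at an unadjusted p below 0.05. In limma the deposited scaling and median centring each called 7 members with the control difference, all but VDAC2.

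**Figure D4:**
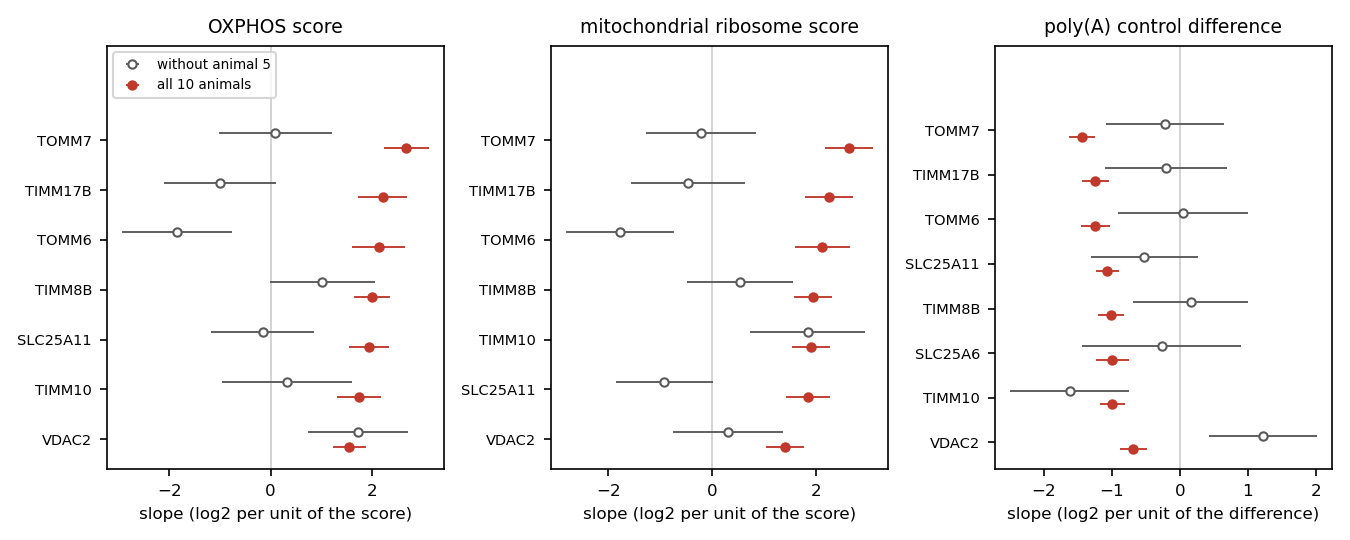
Slope of each member that passed the limma test with 10 animals (x axis, log2 per log2 unit of the score or control difference), by gene, for the OXPHOS score, the mitochondrial ribosome score and the poly(A) control difference. Filled red points are all 10 animals and open points the 9 without animal 5, with bars of 1 SE. The SEs are 1.99 to 4.77 times as wide without animal 5, and 10 of 22 slopes lie on the other side of 0.

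A list of import and transport genes outside the members held 39 symbols, of which 26 were measured and 24 tested, with a median SD of 0.30. With the OXPHOS score 5 of 24 rose (6.64% of all genes) and 0 fell (1.76%). They were DNAJC19, a partner of the import motor (slope 0.69, SE 0.11, limma adjusted p = 0.00645), the pyruvate carrier subunit MPC1 (0.44), the matrix protease CLPP (0.39), the uncoupling protein UCP3 (0.50) and the outer membrane import gene MTX2 (0.26). With the ribosome score the same 5 and the chaperonin HSPE1 rose, 6 of 24 (7.59% of all genes). With the poly(A) control difference DNAJC19, MPC1, CLPP, HSPE1 and UCP3 fell, 5 of 24 (10.2% of all genes), DNAJC19 by 0.75 per SD (limma adjusted p = 0.000815). Without animal 5, limma called 0 of 24 with any of these.

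Covariation with fat cell markers was examined with the adipocyte score, over 14 genes. In limma 0 of 40 members rose (0.016% of 6257 genes) and 0 fell (0% of all), with 3 members at an unadjusted p below 0.05 (6.66%, and likewise 3 without animal 5, 6.37%). SLC25A5 had the smallest p of the members, with a slope of 0.42 (SE 0.09, limma adjusted p = 0.419). This slope was nearly the same without animal 5, at 0.41 (adjusted p = 0.432 in limma), and lay between 0.36 and 0.45 whichever animal was left out. Pearson's r was 0.916 (permutation p = 0.00021, not adjusted) and 0.943 without animals 9 and 2, whose scores were farthest from the median. By rank the relation was close, with rho = 0.964 (exact Spearman p = 4.91e-05, adjusted p = 0.153 over all genes) and 0.95 without animal 5 (exact p = 0.000353, adjusted p = 0.442). SLC25A5 did not pass the adjustment over all genes in either test, and it was picked here as the member with the smallest p of 40. On the brightest probe set the animals with the lowest SLC25A5 were 2, 10 and 5, which also had the lowest scores. Animals 7 and 9 were highest in both. The other SLC25A5 probe set, at a mean of 6.86 (SD 1.16), lay just under the limit and was not tested. It ran from 4.98 in animal 5 to 8.44 in animal 7, with animal 8 next lowest at 5.17. TIMM21 (0.20), TIMM22 (0.24), SLC25A16 (0.45) and SLC25A17 (0.21) were the next by p, with limma adjusted p from 0.743 to 0.825. Without animal 10 the slopes of SLC25A16 and TIMM22 were 0.13 and 0.14. By exact Spearman 0 members were called, with 3 at an unadjusted p below 0.05.

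**Figure D5:**
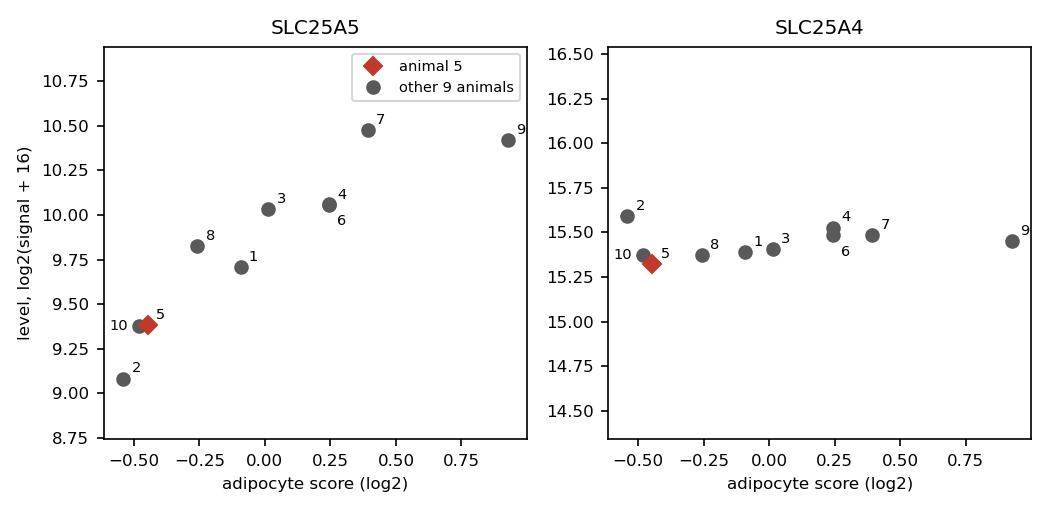
Level of SLC25A5 and SLC25A4 (y axes, log2(signal + 16), of equal span) against the adipocyte score (x axis, log2), 1 point per animal, numbered, with animal 5 as a red diamond. SLC25A5 runs from 9.08 in animal 2 to 10.47 in animal 7 along the score, while SLC25A4 stays between 15.32 and 15.59. The narrow range of SLC25A4 depends on the quantile normalization. At the deposited scaling the SD was 0.39 for SLC25A4 and 0.45 for SLC25A5.

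With the connective tissue score, over 16 matrix genes, 0 of 40 members rose (0.0959% of 6255 genes) and 0 fell (0% of all) in limma, with 1 at an unadjusted p below 0.05 (8.2% of all). Without animal 5, 0 members rose (0.128% of all genes) or fell, with 3 at an unadjusted p below 0.05 (12%). By exact Spearman correlation over 10 animals 0 members passed, and 2 had an unadjusted p below 0.05. TIMM21 had the smallest p, with a slope of 0.20 (SE 0.08, limma adjusted p = 0.536). TOMM40 (-0.23), SLC25A5 (0.26), SLC25A29 (-0.21) and SLC25A16 (0.48) followed, with limma adjusted p from 0.61 to 0.712. The SLC25A16 slope was 0.31 to 0.57 whichever animal was left out. The TOMM40 slope was -0.08 without animal 6 and -0.32 without animal 5.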

How the data were processed

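Poly(A) RNA from 10 muscle samples was hybridised to Affymetrix GeneChip Bovine Genome Arrays, per the labels' protocols. The authors deposited 1 linear intensity per probe set and array; which software summarised them is not given in the labels used here. Trimming 2% at each end left every array with a mean intensity of about 500.2, and medians of 111 to 134. The number of arrays limits the precision.

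The intensities were turned into log2(signal + 16) and quantile normalized in limma version 3.58.1 (R version 4.3.3) without the 112 control probe sets. Of 24016 others, 13292 had 1 gene symbol in the platform annotation, 86 several and 10638 none. RefSeq's ARS-UCD2.0 gene list held all 47 member symbols, and 0 changed. Genes above the median probe set level were tested. Covariation with a score in SD units was fitted with lmFit and eBayes over all tested genes outside the score's list, with Benjamini-Hochberg adjustment at 0.05. Probe set pairs used two-sided permutation tests with 100000 resamples. The fits were tested on simulated data.

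Members, lists and tests were chosen with earlier results of these data known. Named genes are the 10 brightest members, the 10 with the largest and 5 with the smallest SD, those past a fit or, where fewer than 5 passed, the 5 with the smallest p, and fixed role representatives; all other members are given by range. Alternatives were the deposited scaling, median centring, pseudocounts of 1 and 64, no filter or one at the 75th percentile, probe sets averaged per gene, leaving out each animal, Spearman correlation and the poly(A) difference as a covariate. Spearman correlation without animal 5 was added after seeing the data. No sequence tables were used.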

Additional observations from a re-analysis of the deposited data

Results flagged for a closer look

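A value was singled out where the gap between the lowest or highest animal and its neighbour, as a share of the whole range, exceeded Dixon's limit for 10 animals. Chance does this in about 1 in 20 groups. It occurred in 14 of 47 members, all 14 among the 40 tested (35%), and in 16.7% of all 6271 tested genes. In 8 of the 14 the animal was animal 5. It was lowest for TOMM7 (11.40), TOMM6 (10.41), TIMM17B (9.97), SLC25A11 (10.65), TIMM8B (11.82), TIMM10 (8.67) and VDAC2 (12.56), and highest for VDAC1 (14.64), which lay within the others' range under the other 2 scalings. Animal 10 was lowest for SLC25A16 (4.51) and SLC25A37 (8.67), whose next value was 9.41. Animal 6 was lowest for SLC25A38 (7.81) and highest for TOMM70 (12.34, next 12.06). Animal 3 was lowest for SLC25A44 (6.70) and animal 1 for SLC25A51 (6.05).

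The array of animal 5 was also apart on 3 measures that hold no member: the OXPHOS score (-0.56), the mitochondrial ribosome score (-0.56) and the poly(A) control difference (2.34).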

How the results depend on the processing

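Fewer arrays, another scaling, another filter or ranks changed how many genes were called. With the OXPHOS score 520 genes and 7 members were called. The deposited scaling gave 216 genes and 3 members, median centring 114 and 1, no filter 237 genes, and the mean of each gene's probe sets 259 genes and 4 members. Spearman correlation gave 3 genes and 0 members, and the poly(A) difference as a covariate 0 and 0. Counts rose to 659 of 3651 genes and 8 members with the 75th percentile filter. Pseudocounts of 1 and 64 gave 525 and 553 genes, each with 7 members. With the ribosome score 597 genes and 7 members were called. The deposited scaling gave 531 genes and 6 members. Median centring gave 56 and 1, no filter 374 genes, Spearman correlation 0 and 0, and the covariate 0 and 0. The 75th percentile filter gave 768 of 3664 genes and 8 members, and pseudocounts of 1 and 64 gave 612 and 626 genes. With the adipocyte score 1 gene was called, against 2 with the deposited scaling, 3 with the covariate, and 0 with median centring, no filter, the 75th percentile filter, the mean of probe sets or Spearman correlation. With the connective tissue score 6 genes were called, against 1 with the deposited scaling, 2 with the 75th percentile filter, 2 with a pseudocount of 64, 1 by Spearman correlation, and 0 with median centring, no filter or a pseudocount of 1. With the poly(A) difference 880 genes and 8 members were called, against 557 genes with no filter, 408 with a pseudocount of 1, and 1 gene and 0 members by Spearman correlation. For this difference the deposited scaling gave 847 genes and 7 members, and median centring 651 and 7. The 75th percentile filter gave 950 of 3728 genes, where 8 members fell and 1 rose. A pseudocount of 64 gave 1019 genes and 8 members. Spearman correlation without animal 5, chosen after seeing the data, called 0 genes with the OXPHOS, ribosome and adipocyte scores and the poly(A) difference, 1 gene with the connective tissue score, and 0 members. The cause of these shifts was not tested.

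With each animal left out, genes called ranged from 0 to 680 (OXPHOS), 0 to 732 (ribosome), 0 to 1 (adipocyte), 0 to 8 (connective tissue) and 0 to 954 (poly(A) difference). Members called ranged from 0 to 8, 0 to 8 and 0 to 9 with the OXPHOS score, the ribosome score and the poly(A) difference, and were 0 with the other scores. In those 3 the 0 came without animal 5. Each member's call with them was otherwise kept, except that of VDAC2. Its call was kept in 8 of 10 fits with the ribosome score and in 2 of 10 with the poly(A) difference. The members' median SD ranged from 0.28 to 0.39 and their median pairwise r from 0.021 to 0.065. That r was 0.082 with the 75th percentile filter and 0.11 with the mean of probe sets.

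Slopes per SD of the score that turned sign without animal 5 were those of SLC25A11 (-0.011 to 0.43 whichever animal was left out), TIMM17B (-0.071 to 0.51) and TOMM6 (-0.13 to 0.50) with the OXPHOS score. With the ribosome score they were SLC25A11 (-0.066 to 0.45), TIMM17B (-0.034 to 0.52), TOMM6 (-0.13 to 0.51) and TOMM7 (-0.016 to 0.61), and with the poly(A) difference TIMM8B (-0.43 to 0.0145), TOMM6 (-0.53 to 0.0046) and VDAC2 (-0.32 to 0.11). With the covariate the ribosome slopes of SLC25A11 (-0.062) and TOMM6 (-0.098) turned. Of 565 slope values recomputed, these 12 turned, 64 lost their call and 489 kept direction and call. Of 673 recomputed SDs, 28 moved by more than their error. The number of arrays limits all of these. No paired analysis was possible because all animals form 1 group.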

Other observations

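Without animal 5, SLC25A44 had the smallest p of the members with the mitochondrial ribosome score, at a slope of -0.48 (SE 0.08, limma adjusted p = 0.14). This gene was lowest in animal 3, which had the highest ribosome score of the other 9 animals, at 0.22. With the connective tissue score and without animal 5, TOMM40 had a slope of -0.32 (SE 0.08, limma adjusted p = 0.187) and SLC25A29 of -0.29 (limma adjusted p = 0.291). With the poly(A) control difference and without animal 5, SLC25A33 had a slope of -0.49 (SE 0.15, limma adjusted p = 0.661). By exact Spearman correlation TOMM6 went against the ribosome score in the 9 animals (rho = -0.9, exact p = 0.00203, adjusted p = 0.197). None of these 5 genes passed the test after adjustment.

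Extremes were spread unevenly over the animals. Animal 6 held the highest value of 8 of the 40 tested members, while 11.6% of all tested genes were highest there. Animal 8 held the lowest value of 6 members, while 5.45% of all tested genes were lowest there. The dimmest of the 3 SLC25A6 probe sets, at a mean of 7.49, was at 8.32 in animal 5, above the 7.09 to 7.97 of the other 9, opposite to the brightest.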
